A study of Mus musculus with 30 samples.

Results

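Prostaglandins and leukotrienes are lipid mediators made from arachidonic acid, and 10 genes of their synthesis and sensing were followed here among the 43629 genes of the count table. They were taken by name: *Pla2g4a*, *Ptgs1*, *Ptgs2*, *Ptges*, *Ptger2*, *Ptger4*, *Alox5*, *Alox5ap*, *Ltc4s* and *Alox15*, each matched to 1 Ensembl identifier. RNA was sequenced from bone marrow–derived dendritic cells (BMDCs), which were grown with GM-CSF from marrow of 6- to 12-week-old mice of both sexes and used on day 6 of culture. Wild-type (WT) mice were C57BL/6J and Cacnb3-/- mice, which lack the β3 subunit of voltage-gated calcium channels, were C57BL/6N, so genotype and substrain cannot be told apart. Each genotype had 5 cultures, and every culture gave 3 libraries, here called ctrl, 0p5h and 24h after the last part of their names. ATP was given at 500 µM for 30 min. The labels have cells harvested directly after it or after 24 h, whereas the study's text counts the early harvest as 30 min after the pulse. For the libraries named ctrl and 0p5h the labels contradict each other, because the treatment field reads ATP for the first and vehicle for the second, so both sets are given by name only and which of them was unstimulated was not resolved. Name and treatment field agree for 24h. The labels do not say whether a culture number marks 1 animal, and GM-CSF cultures hold cells other than dendritic cells.

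Phospholipase A2 frees arachidonic acid from membranes, and cyclooxygenases turn it into prostaglandin H2, from which prostaglandin E synthase makes prostaglandin E2. Dendritic cells sense prostaglandin E2 through receptors that include EP2 and EP4, which raise cAMP and are known for licensing migration toward lymph node chemokines. On the other branch 5-lipoxygenase, with its activating protein, makes leukotriene A4, which leukotriene C4 synthase conjugates to glutathione, and cysteinyl leukotrienes are also known for a role in dendritic cell migration.

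Depth was 8237393 to 32164225 counts per library (median 19556920). *Cacnb3* itself was counted at 1035 to 2143 CPM (counts scaled to library size after TMM normalization) in WT. Libraries labelled Cacnb3-/- had 573 to 1331 CPM. The genotypes overlapped in ctrl and 0p5h but not in 24h, where the lowest WT library had 1303 CPM and the highest Cacnb3-/- library 1295 CPM. Counts over the whole gene therefore did not check the genotype labels, and the deleted part of the gene was not resolved by these counts. Mitochondrially encoded genes took 0.706 to 5.61% of counts in WT and 2.16 to 16.5% in Cacnb3-/- libraries. Of 8 dendritic cell markers 7 had a median of at least 1 CPM in each of the 6 groups, *Cd209a* being the exception, while the summed B, T and NK cell markers stayed between 0.192 and 3.64 CPM. Neutrophil markers summed to 130 to 689 CPM, with 6 of 8 at such a median in each group. Mast cell and basophil markers summed to 89.2 to 200 CPM, mostly *Kit*, with 3 to 5 of 11 at such a median. The part of these cells in the member values was not tested. In bulk RNA, fewer cells of a type and less RNA per cell cannot be told apart.

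The promoter sequences of 3 members are shown because these are the cyclooxygenase and the prostaglandin E2 receptors whose mRNA differed between the sets named ctrl and 0p5h. RefSeq promoters on GRCm38.p6, the build of the count table, covered 8 of the 10 genes, *Alox5ap* and *Alox15* being the others. Each sequence runs 5′ to 3′ on the gene's strand, with 250 bases before the start and 50 from it. Capitals mark matches on either strand to 4 motifs, which are the core of a cAMP response element (CRE), TGACG, an AP-1 pattern (TGA and TCA with 1 base between them), an NF-kB-like pattern (GGG and CC with 5 bases between them) and the TATA box, TATAAA. The windows are chr1:150099781-150100080 (plus strand) for *Ptgs2*, chr14:44987861-44988160 (plus strand) for *Ptger2* and chr15:5244138-5244437 (minus strand) for *Ptger4*.
Ptgs2: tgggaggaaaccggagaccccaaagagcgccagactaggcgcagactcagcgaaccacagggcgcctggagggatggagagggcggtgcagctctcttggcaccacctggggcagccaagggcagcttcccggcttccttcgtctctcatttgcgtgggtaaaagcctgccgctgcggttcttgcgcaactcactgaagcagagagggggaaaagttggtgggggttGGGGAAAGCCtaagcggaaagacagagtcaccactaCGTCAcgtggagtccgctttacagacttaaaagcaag
Ptger2: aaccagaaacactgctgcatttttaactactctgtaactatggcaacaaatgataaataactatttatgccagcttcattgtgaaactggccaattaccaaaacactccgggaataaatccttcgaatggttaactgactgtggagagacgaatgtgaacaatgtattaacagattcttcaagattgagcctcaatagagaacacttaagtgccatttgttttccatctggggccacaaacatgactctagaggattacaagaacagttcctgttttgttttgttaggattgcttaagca
Ptger4: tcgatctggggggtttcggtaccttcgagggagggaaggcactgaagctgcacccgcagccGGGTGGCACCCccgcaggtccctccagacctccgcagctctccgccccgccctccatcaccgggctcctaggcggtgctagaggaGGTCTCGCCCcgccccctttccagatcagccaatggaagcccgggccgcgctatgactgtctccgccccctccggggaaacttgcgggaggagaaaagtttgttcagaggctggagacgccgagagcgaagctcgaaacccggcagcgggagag

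The *Ptgs2* window held 1 CRE core, at bases 264 to 268 on the reverse strand, and 1 NF-kB-like match, at bases 228 to 237. Among the 8 genes with a window it was the only gene with a CRE core, which 20.8% of 32851 RefSeq promoters of this length hold. The *Ptger4* window held 3 NF-kB-like matches, of which the pair starting at bases 62 and 63 overlap, and the *Ptger2* window held none of the 4 motifs. NF-kB-like matches occur in 50.8% of all promoters, AP-1 matches in 7.81% and TATA boxes in 13.6%, so a match is no sign of a site in use. For *Ptger2* the count table places the gene start 84 bases downstream of the RefSeq start, and for the other members shown both starts coincide.

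Per length, the members fell into a high and a low tier. *Alox5ap*, which encodes the 5-lipoxygenase activating protein, was the highest in each of the 6 groups, with 217 ± 46.1 CPM per kilobase of exon (SD, n = 5) in WT ctrl and 257 ± 107 in Cacnb3-/- ctrl, and its libraries did not overlap with those of the next gene in any group. *Ltc4s* followed with 57.4 ± 10.6 and 53.2 ± 15.6, and *Ptger4* with 28 ± 2.11 and 31 ± 7.97, the libraries of both overlapping in Cacnb3-/- ctrl but not in WT ctrl. *Alox5*, *Ptger2*, *Ptges*, *Pla2g4a* and *Ptgs1* had means between 0.864 and 3.64 over the 6 groups and did not separate from each other along the order, and *Alox15* was the lowest in each group, at 0.430 or less. The place of *Ptgs2* differed by set. In WT its mean was 7.01 in ctrl, 69.3 in 0p5h, above that of *Ltc4s* with overlapping libraries, and 4.4 in 24h. *Ltc4s* shares 192 of 736 exon bases with *Gm26542* on the opposite strand, and *Ptger4* shares 82 with *Ttc33* and 1015 of 6648 with *Gm15937*. Reads were counted without regard to strand and reads over more than 1 gene were dropped, so both levels are uncertain to that extent.

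**Figure D1:**
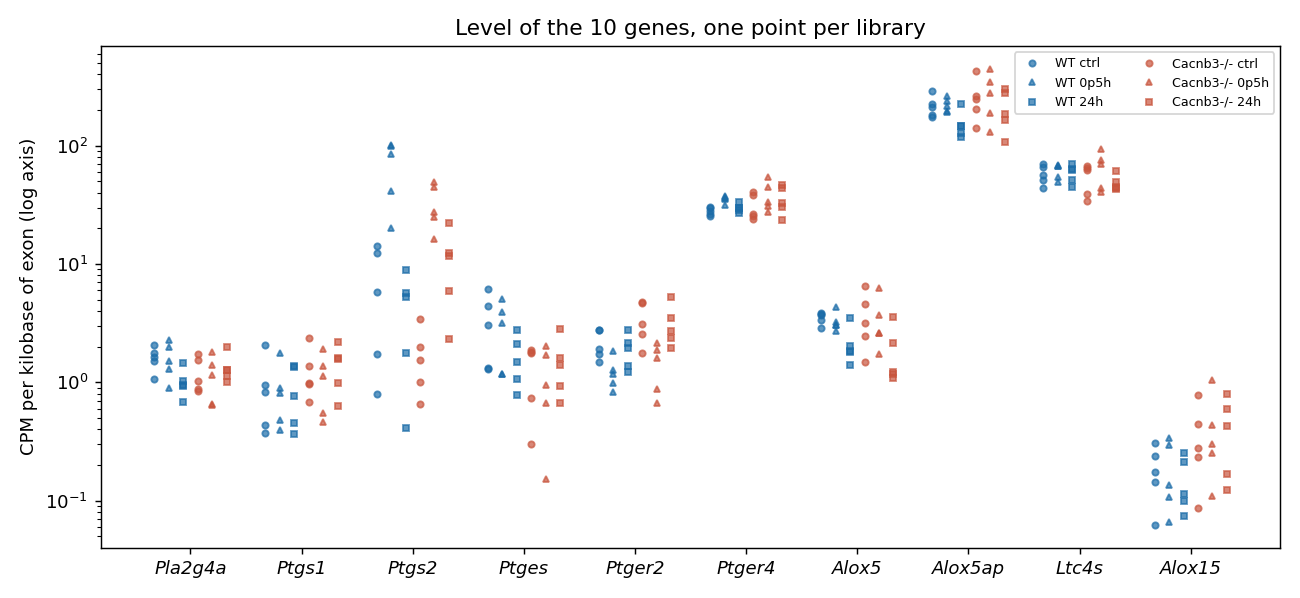
Level of the 10 genes as CPM per kilobase of exon (log axis), with 1 point per library, WT in blue and Cacnb3-/- in red, and a symbol for each set. Alox5ap, Ltc4s and Ptger4 lie above the other members except Ptgs2, whose mean was 7.01 in WT ctrl and 69.3 in WT 0p5h.

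*Ptgs2*, the inducible cyclooxygenase COX-2 (Ensembl ENSMUSG00000032487, GRCm38 chr1:150100031-150108227), had the largest log2 fold changes of the members for 0p5h against ctrl and 24h against 0p5h. In WT cultures p974s846, p974s850, p974s855, p974s856 and p974s864, in this order here and for the other genes, it stood at 57.3, 7.95, 64.9, 26.7 and 3.69 CPM in ctrl, at 389, 190, 456, 459 and 92.9 CPM in 0p5h, and at 26, 24, 40.8, 8.12 and 1.88 CPM in 24h. All 5 libraries named 0p5h lay above all those named ctrl and 24h, and the culture with the lowest level in ctrl, p974s864, was also the lowest in the other sets. The Cacnb3-/- cultures were p974s843, p974s851, p974s852, p974s853 and p974s865, listed in this order throughout. In them *Ptgs2* stood at 4.64, 15.8, 9.13, 7.12 and 3.0 CPM in ctrl, at 226, 127, 115, 74.2 and 206 CPM in 0p5h, and at 103, 53.5, 27.2, 56.5 and 10.6 CPM in 24h. Here too 0p5h lay above ctrl without overlap, while 24h overlapped with both other sets.

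Between 0p5h and ctrl, *Ptgs2* was higher within each of the 5 WT cultures by 6.79- to 25.2-fold and within each of the 5 Cacnb3-/- cultures by 8.03- to 68.5-fold. Genes were called at an adjusted p under 0.05 in edgeR's quasi-likelihood test, with Benjamini-Hochberg adjustment over all genes tested, and a change of at least 2-fold. In Cacnb3-/- cells *Ptgs2* was higher in 0p5h by a log2 fold change of 4.24 ± 0.46 (SE, adjusted p = 0.00142). It was the 1 member called of 10 tested, where 0.29% of all genes were called. In WT cells the log2 fold change was 3.32 ± 0.76 and was not called (adjusted p = 0.176), as was no member among 9 tested, with 0.176% of all genes called. At an unadjusted p under 0.05 there were 3 of 9 members and 4.54% of all genes. With the culture as a replicate block, the paired fit, *Ptgs2* was called higher in WT 0p5h as well, by 3.62 ± 0.26 (adjusted p = 2.35e-05, with 0.581% of genes called). Its adjusted p over the 7 alternatives ran from 2.1e-05 to 0.177. The paired call held with each WT culture left out, at a log2 fold change of 3.40 to 3.89. DESeq2 also called it in WT (adjusted p = 0.00319), where it called 0.34% of all genes.

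Between 24h and 0p5h, *Ptgs2* was lower within all 10 cultures. In WT it was lower by 3.97 ± 0.72 on the log2 scale (adjusted p = 0.0227), the 1 member called of 9 tested beside 0.639% of all genes. Without a block this call was lost when p974s846, p974s850, p974s855 or p974s856 was left out (highest adjusted p = 0.146), and with the block, where 1.78% of genes were called, it held with each culture left out (highest adjusted p = 0.00358). In Cacnb3-/- cells the log2 fold change was -1.57 ± 0.50 (adjusted p = 0.18), and 0 members were called where 0.66% of genes were called. At an unadjusted p under 0.05 there were 2 of 10 members and 17.5% of all genes. The paired fit called *Ptgs2* as well, which was lower by 1.73 ± 0.42 (log2) in those cells (adjusted p = 0.0124, over the alternatives 0.00247 to 0.178). There 2 members were called beside 2.88% of all genes, and 2 of 10 were also called by DESeq2, beside 1.49% of all genes. The comparisons of 0p5h with ctrl and of 24h with 0p5h share the libraries named 0p5h and are not independent of each other.

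Between 24h and ctrl the genotypes lay on different sides of 0. In WT *Ptgs2* was lower in 4 of 5 cultures, with a log2 fold change of -0.65 ± 0.80 (adjusted p = 0.848). It was higher in 5 of 5 Cacnb3-/- cultures, by 2.98- to 22.1-fold, with a log2 fold change of 2.67 ± 0.58 that edgeR without a block did not call (adjusted p = 0.231, over the alternatives 0.00738 to 0.335). In WT 0 members were called beside 0.0152% of all genes (0.926% with the replicate block, again without a member), and 3 of 10 had an unadjusted p under 0.05 beside 8.39% of all genes. For Cacnb3-/- cells 0 members and 0% of genes were called without a block, and 2 of 10 members had an unadjusted p under 0.05 beside 10.8% of all genes. DESeq2 called *Ptgs2* there, and 0.378% of all genes. The replicate block called *Ptgs2* there as well, with values given among the alternatives at the end. A share of all genes is not given for that fit. Whether the difference between 24h and ctrl itself differed between genotypes was tested as an interaction, which for *Ptgs2* was 3.32 ± 1.07 on the log2 scale and did not pass (unadjusted p = 0.00541, adjusted p = 0.753).

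**Figure D2:**
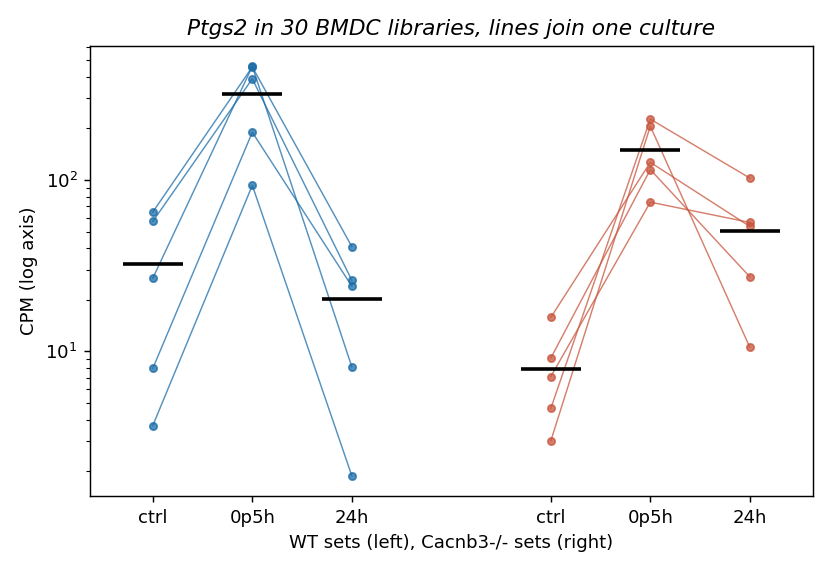
Ptgs2 in CPM (log axis) by set, WT in blue on the left and Cacnb3-/- in red on the right. Points are libraries, lines join the 3 libraries of a culture and black bars are group means. In both genotypes the libraries named 0p5h lie above those named ctrl, and in 24h the WT libraries span 1.88 to 40.8 CPM and the Cacnb3-/- libraries 10.6 to 103 CPM.

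The constitutive cyclooxygenase COX-1, encoded by *Ptgs1*, was called in no comparison under edgeR with or without the block. It ranged from 1.42 to 9.17 CPM over the 30 libraries, and its log2 fold changes between sets lay between -0.26 and 0.38. Per length the ratio of *Ptgs2* to *Ptgs1* in a library had a median of 7.01 in WT ctrl (0.387 to 37.8), 112 in WT 0p5h (11.4 to 252) and 6.77 in WT 24h (0.306 to 19.7). The Cacnb3-/- medians were 1.60 (0.277 to 3.5), 29.2 (23.4 to 54.5) and 9.36 (1.06 to 14.2). In both genotypes each library named 0p5h therefore held more *Ptgs2* than *Ptgs1* mRNA per length, whereas the other sets had libraries on either side of 1, apart from Cacnb3-/- 24h, where all 5 were above it.

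*Pla2g4a*, the cytosolic phospholipase A2 that releases arachidonic acid, was not called in any comparison and ranged from 4.09 to 14.7 CPM. In WT it had a log2 fold change of -0.67 ± 0.14 in 24h against ctrl with the replicate block (adjusted p = 0.0266, higher in 0 of 5 cultures), below the 2-fold minimum, and without the block the adjusted p was 0.442. Its log2 fold change between the same sets of Cacnb3-/- cells, fitted without the block, was 0.14 ± 0.25 (adjusted p = 0.773), higher in 4 of 5 cultures.

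*Ptges* encodes the microsomal synthase that makes prostaglandin E2 from the product of the cyclooxygenases. In WT it stood at 24.2, 5.12, 12.1, 17.5 and 5.15 CPM in ctrl, at 19.8, 4.63, 12.5, 15.5 and 4.62 CPM in 0p5h, and at 11, 4.18, 8.24, 5.86 and 3.05 CPM in 24h. The Cacnb3-/- values were 7.35, 7.13, 1.18, 2.89 and 6.98 CPM in ctrl, 8.0, 3.76, 0.596, 2.62 and 6.69 CPM in 0p5h, and 11, 6.31, 2.64, 3.63 and 5.49 CPM in 24h. The spread between cultures was wider than the difference between sets, and the groups overlapped in every comparison. From 0p5h to 24h *Ptges* was lower in 5 of 5 WT cultures (paired log2 fold change -0.74 ± 0.16, adjusted p = 0.0185, under 2-fold) and higher in 4 of 5 Cacnb3-/- cultures (0.51 ± 0.23, adjusted p = 0.117). The paired interaction of genotype with this change was 1.23 ± 0.30 for *Ptges*, 2.46 ± 0.66 for *Ptgs2* and 0.92 ± 0.26 for *Pla2g4a*, each with an adjusted p of 0.108, and without the block the adjusted p was 0.68 for each.

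**Figure D3:**
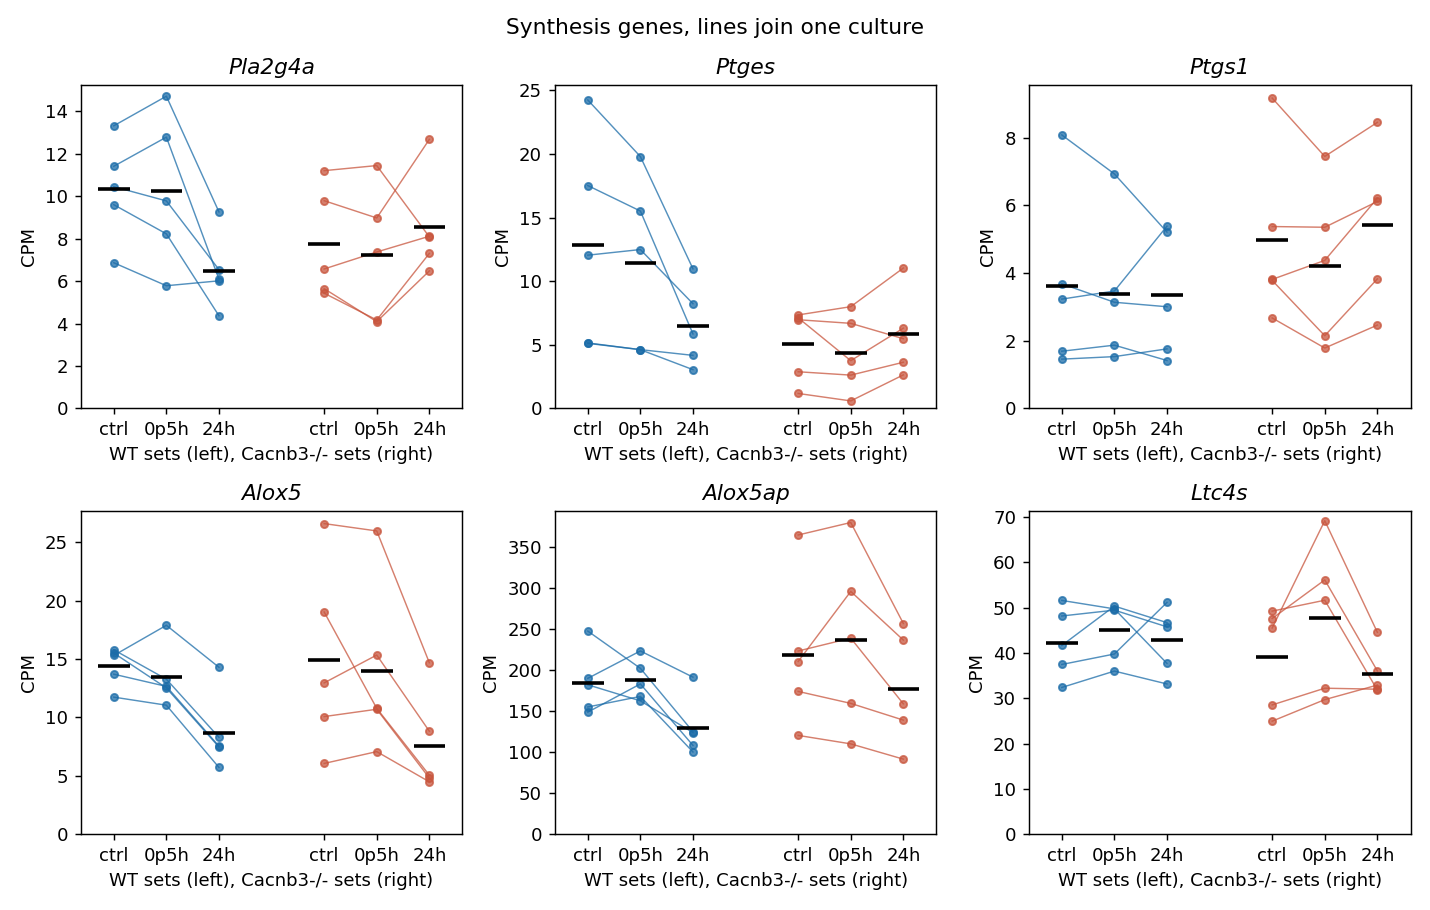
Synthesis genes Pla2g4a, Ptges, Ptgs1, Alox5, Alox5ap and Ltc4s in CPM by set, each panel with its own axis from 0. Lines join the libraries of a culture, WT in blue and Cacnb3-/- in red, and black bars are group means. Alox5 was lower in 24h than in 0p5h in 10 of 10 cultures and Ptges in 5 of 5 WT cultures.

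The prostaglandin E2 receptor mRNAs among the members differed in opposite directions between ctrl and 0p5h, *Ptger2* being lower and *Ptger4* higher in 0p5h within every culture. *Ptger2*, which encodes EP2, stood at 6.4, 7.02, 5.49, 10.1 and 10.2 CPM in WT ctrl, at 3.62, 3.08, 4.73, 6.79 and 4.30 CPM in WT 0p5h, and at 5.03, 7.18, 4.55, 10.2 and 7.94 CPM in WT 24h. The Cacnb3-/- cultures had it at 17.1, 11.4, 6.53, 9.43 and 17.7 CPM in ctrl, at 6.87, 5.88, 2.46, 3.25 and 7.94 CPM in 0p5h, and at 19.4, 10.02, 7.22, 8.74 and 13 CPM in 24h. Libraries named 0p5h were the low ones within each culture in 10 of 10 cultures against ctrl and in 9 of 10 against 24h, although the groups overlapped.

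With the culture as a replicate block *Ptger2* was lower in 0p5h than in ctrl in Cacnb3-/- cells, by 1.26 ± 0.11 (log2, adjusted p = 0.00029). This made 2 members called of 10 where 0.643% of genes were called. It was higher in 24h than in 0p5h by 1.16 ± 0.16 (adjusted p = 0.000781), and both calls held with each Cacnb3-/- culture left out. Without the block the same changes were -1.25 ± 0.35 (adjusted p = 0.439) and 1.15 ± 0.35 (adjusted p = 0.161), and over the alternatives the adjusted p ran from 0.000173 to 0.441 for the first and from 0.000781 to 0.251 for the second. In WT the paired log2 fold changes were -0.77 ± 0.14 (adjusted p = 0.0104) and 0.61 ± 0.17 (adjusted p = 0.0546), both under 2-fold. The interaction of genotype with the change from ctrl to 0p5h was -0.45 ± 0.45 (unadjusted p = 0.329) and -0.47 ± 0.20 with the block (unadjusted p = 0.0294), with an adjusted p of 1 in both fits, so a difference between genotypes in this change was not shown.

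*Ptger4*, which encodes EP4, was the more abundant receptor and varied little. It ranged from 168 to 201 CPM in WT ctrl, from 211 to 250 CPM in WT 0p5h and from 179 to 220 CPM in WT 24h, and from 157 to 364 CPM over the Cacnb3-/- libraries. In WT, 0p5h lay above ctrl without overlap and was higher in 5 of 5 cultures, with a paired log2 fold change of 0.35 ± 0.04 (adjusted p = 0.000441, without the block 0.176), well under the 2-fold minimum. All 5 Cacnb3-/- cultures were also higher, by 0.28 ± 0.06 (paired adjusted p = 0.059). Per length, the ratio of *Ptger4* to *Ptger2* had a median of 14.7 in WT ctrl (9.61 to 17.4), 30.5 in WT 0p5h (20.4 to 44.2) and 14.6 in WT 24h (10.7 to 24.3), so in WT the ratios in 0p5h lay above all those in ctrl. The Cacnb3-/- medians were 8.55, 21 and 11.2 with overlapping ranges.

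**Figure D4:**
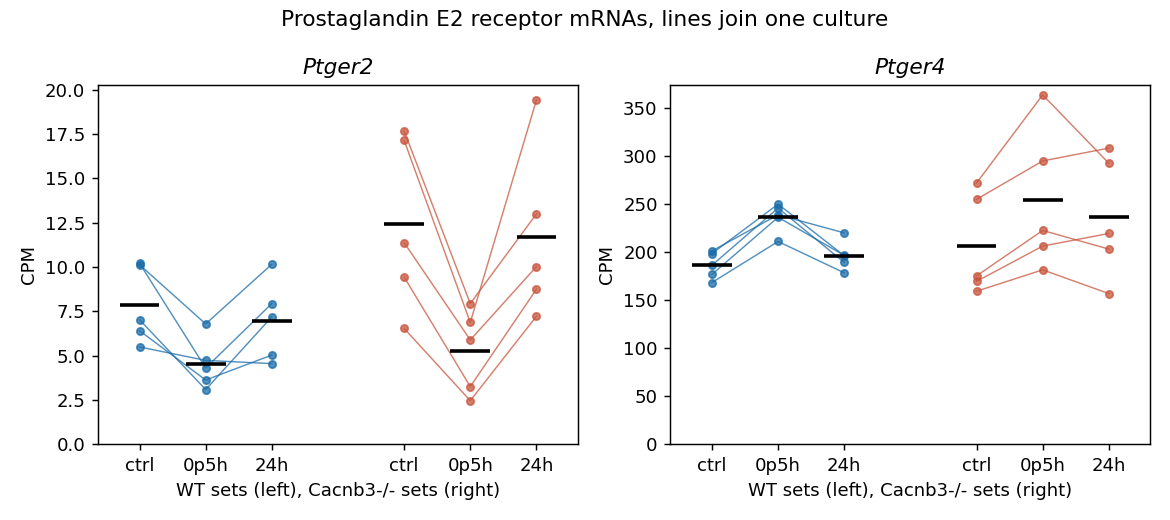
Ptger2 and Ptger4 in CPM by set, WT in blue on the left and Cacnb3-/- in red on the right of each panel, with lines joining the libraries of a culture and black bars at group means. Ptger2 is lower and Ptger4 higher in 0p5h than in ctrl in 10 of 10 cultures.

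On the leukotriene branch, *Alox5*, *Alox5ap* and *Ltc4s* were not called in edgeR with or without the block. *Alox5* and *Alox5ap* were lower in 24h than in 0p5h in every culture, and *Ltc4s* in 4 of 5 cultures of each genotype. *Alox5*, the 5-lipoxygenase, ranged from 11.7 to 15.8 CPM in WT ctrl, from 11.05 to 17.9 in WT 0p5h and from 5.72 to 14.3 in WT 24h, and from 6.06 to 26.6, 7.07 to 26 and 4.49 to 14.7 CPM in the same sets of Cacnb3-/- cells. Between 24h and 0p5h the paired log2 fold change was -0.68 ± 0.11 in WT (adjusted p = 0.00515) and -0.88 ± 0.12 in Cacnb3-/- cells (adjusted p = 0.000674), with 5 of 5 cultures lower in each, and without the block the adjusted p was 0.306 and 0.289. For *Alox5ap* the paired values were -0.56 ± 0.10 (adjusted p = 0.00686) and -0.38 ± 0.09 (adjusted p = 0.0125), again lower in 5 of 5 cultures of each genotype, and without the block the adjusted p was 0.248 and 0.52. Both genes stayed under the 2-fold minimum. Against ctrl, *Alox5* was at -0.78 ± 0.15 in WT (paired adjusted p = 0.0159), lower in 5 of 5 cultures. In Cacnb3-/- cells it was at -0.96 ± 0.42 without the block (adjusted p = 0.444), also lower in 5 of 5 cultures. These fits are not alike, so their p-values do not compare the genotypes.

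The summed level of 7 macrophage markers was 1311 to 2852 CPM in WT 0p5h and 549 to 1281 CPM in WT 24h, and 585 to 3659 and 443 to 1198 CPM in the same sets of Cacnb3-/- cells, with all 7 markers at a median of at least 1 CPM in each group. These sums were mostly *Cd14* and *Csf1r*. *Cd14* had a median of 1029 CPM in WT 0p5h, 244 CPM in WT 24h, 1070 CPM in Cacnb3-/- 0p5h and 205 CPM in Cacnb3-/- 24h, and for *Csf1r* the same medians were 480, 345, 509 and 308 CPM. The other 5 markers summed to 156 to 320 CPM in WT 0p5h (median 205) and 119 to 254 in WT 24h (median 225). In Cacnb3-/- cells they summed to 209 to 356 CPM (median 322) and 260 to 382 CPM (median 283) in the same sets. Of the 7 markers, 7 had a lower median in 24h in WT, whereas in Cacnb3-/- cells 3 were lower and 4, *Adgre1*, *Mertk*, *Fcgr1* and *Mrc1*, were higher. The part of these cells in the values of *Alox5* and *Alox5ap* was not tested.

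*Ltc4s*, the leukotriene C4 synthase, ranged from 25 to 69.2 CPM over the 30 libraries, with log2 fold changes between sets of -0.42 to 0.28 without the block. *Alox15*, the lipoxygenase typical of eosinophils and some macrophages, was counted with 4 to 49 reads per library and was under edgeR's low-count filter in WT for 0p5h against ctrl and 24h against 0p5h. It stood at 0.589, 0.427, 0.154, 0.350 and 0.758 CPM in WT ctrl, at 0.724, 0.330, 0.163, 0.263 and 0.832 CPM in WT 0p5h and at 0.183, 0.278, 0.246, 0.625 and 0.517 CPM in WT 24h. The Cacnb3-/- values were 0.689, 0.576, 1.10, 1.92 and 0.211 CPM in ctrl, 1.07, 0.619, 0.745, 2.57 and 0.270 CPM in 0p5h, and 1.46, 0.301, 1.06, 1.96 and 0.412 CPM in 24h. The groups overlapped, and culture p974s853 was the highest in each Cacnb3-/- set. Eosinophil markers summed to 1.37 to 9.01 CPM, with *Epx* at a median under 1 CPM in each group.

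**Figure D5:**
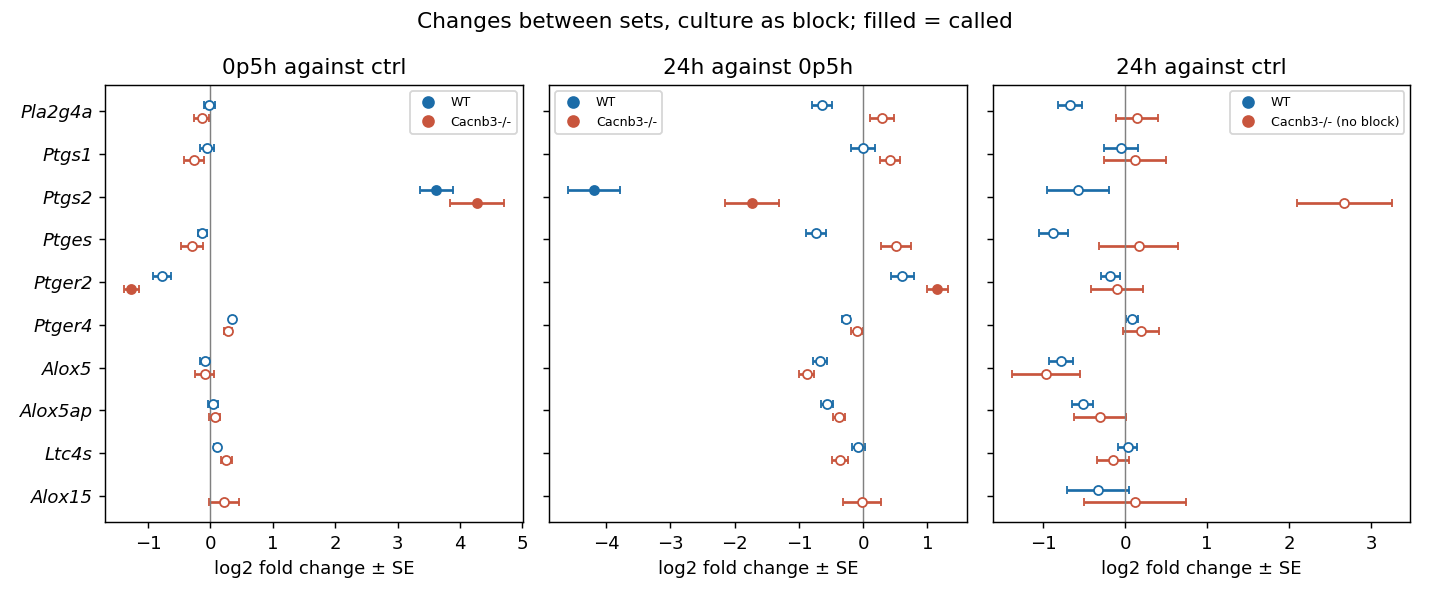
Log2 fold change with its standard error for each member between sets, WT in blue and Cacnb3-/- in red, from the edgeR fit with the culture as a block (for Cacnb3-/- 24h against ctrl, without it). Alox15 has no WT point where it was not tested. Filled points were called at an adjusted p under 0.05 and at least 2-fold. These are Ptgs2 in both genotypes for 0p5h against ctrl and 24h against 0p5h, and Ptger2 in Cacnb3-/- cells for the same pairs of sets.

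Between genotypes, no member was called in any set. In edgeR 0 of 10 members and 0% of all genes were called in ctrl, 0p5h, 24h or with the 3 libraries of each culture summed. At an unadjusted p under 0.05 there were 3, 2, 2 and 2 members, beside 16.6, 16.4, 38.4 and 23.3% of all genes. DESeq2 called 0 members in each, where it called 1.02% of all genes in ctrl, 0.625% in 0p5h, 4.46% in 24h and 1.76% of those summed. With all 30 libraries in 1 edgeR fit 0 members were called beside 0% of all genes in ctrl, 0% in 0p5h and 4.47% in 24h. The libraries of the genotypes overlapped for all 10 members in all 3 sets. How many of all genes overlap in this way was not computed, so this is not read as a trait of the members. *Ptgs2* had a log2 fold change, Cacnb3-/- against WT, of -2.0 ± 0.70 in ctrl (adjusted p = 0.251), -1.07 ± 0.42 in 0p5h (adjusted p = 0.273) and 1.31 ± 0.68 in 24h (adjusted p = 0.172). Its mean was 32.1 ± 28 CPM in WT ctrl and 7.93 ± 4.96 CPM in Cacnb3-/- ctrl (SD, n = 5), and 20.2 ± 15.5 and 50.1 ± 35 CPM in 24h. *Ptges* was at -1.29 ± 0.52 in ctrl (adjusted p = 0.274), -1.37 ± 0.57 in 0p5h (adjusted p = 0.282) and -0.15 ± 0.41 in 24h. *Ptger2* was at 0.69 ± 0.28 in ctrl (adjusted p = 0.274) and 0.76 ± 0.30 in 24h (adjusted p = 0.0863), and *Alox15* at 1.43 ± 0.56 in 24h (adjusted p = 0.087), which passed once Cacnb3-/- culture p974s865 was left out (1.68, adjusted p = 0.0343, over the 10 fits that leave out a culture 0.0343 to 0.229). Mitochondrial shares differed between the genotypes as given above (medians of 1.53, 1.98 and 2.55% in WT and 5.23, 5.13 and 10.5% in Cacnb3-/- cells for ctrl, 0p5h and 24h), and their part in these values was not tested. Markers of other cells and states differed as well, and their part was not tested either. Of 5 megakaryocyte and erythroid markers 2, *Pf4* and *Itga2b*, had a median of at least 1 CPM in each group, and the list summed to 27.6 to 69.3 CPM in WT ctrl, 32.5 to 68.3 in WT 0p5h and 33.9 to 59.5 in WT 24h against 66.5 to 155, 72.8 to 234 and 72.3 to 174 CPM in Cacnb3-/- cells. These sums, mostly *Pf4*, did not overlap between genotypes in 0p5h and 24h, whereas *Itga2b* alone did overlap. Of 7 markers of mature or migratory dendritic cells, *Cacnb3* among them, all had a median of at least 1 CPM in each group. They summed to 19477 to 26416 CPM in WT 24h and 9942 to 16979 CPM in Cacnb3-/- 24h without overlap. The sums overlapped in ctrl and 0p5h. In 24h they were mostly *Ccl22*, *Fscn1* and *Ccr7*, and *Ccl22*, *Cd40* and *Cd83* each overlapped between genotypes. *Cd83* had a higher mean in Cacnb3-/- 24h (1892 against 1759 CPM) but a lower median (1670 against 1734 CPM). The means of the other markers were lower there. How many of all genes or lists separate in this way was not computed. Once trends with GC content were taken out, *Ptgs2* in 24h was at 0.82, and no member was called. The share of all genes called in that fit is not given. Both genotypes were spread unevenly over the 3 sequencing lanes that the column names give. With the lane as a term, 0 members were called in ctrl, 0p5h or 24h, as were 0 of 13022, 12806 and 12706 genes tested. At an unadjusted p under 0.05 there were 1, 2 and 4 members, without a share of all genes to set beside them. In 24h with this term *Ptgs2* was at 0.79 ± 0.73 (adjusted p = 0.483) and *Alox15* at 0.84 ± 0.62 (adjusted p = 0.372).

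Interactions of genotype with the change between sets called 0 members in edgeR, with or without the block, and 0 in DESeq2, which called 0% of all genes in each. At an unadjusted p under 0.05 there were 0 of 10 members for 0p5h against ctrl, 2 for 24h against 0p5h and 2 for 24h against ctrl, *Ptgs2* and *Pla2g4a* in both cases, beside 0.223, 5.88 and 4.86% of all genes. Of all genes 0% were called in these tests without the block, 0% with it for 0p5h against ctrl and 0.00745% with it for 24h against 0p5h.

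A wider list of 53 genes held other phospholipases, prostanoid and leukotriene enzymes, receptors, transporters and breakdown enzymes, of which 29 to 32 had a median of at least 1 CPM in a group. In edgeR without the block, 33 to 37 of them were tested and 0 were called in any of the 13 comparisons. At an unadjusted p under 0.05 there were 5 of 37, 5 of 35 and 14 of 35 between genotypes in ctrl, 0p5h and 24h, beside 16.6, 16.4 and 38.4% of all genes. DESeq2, with the shares of all genes given above, called 2 of these genes between genotypes in ctrl (*Faah* and *Pla2g4f*, lower in Cacnb3-/- cells), 1 in 0p5h (*Pla2g4f*, lower) and 4 in 24h (*Ptges3*, higher, and *Faah*, *Pla2g5* and *Ptger1*, lower). *Pla2g5* was near the floor in 24h, at 0.047 to 0.901 CPM in WT and 0.0412 to 0.266 CPM in Cacnb3-/- libraries. *Faah* was also low there, at 0.798 to 2.5 CPM in WT and 0.589 to 0.952 CPM in Cacnb3-/- libraries. *Ptger1*, a further prostaglandin E2 receptor gene, had a median of 63.1 CPM in WT ctrl and 52.7 CPM in Cacnb3-/- ctrl. The medians of *Ptger2* in these groups were 7.02 and 11.4 CPM. Between 24h and 0p5h the paired fit called *Hpgds*, the hematopoietic prostaglandin D synthase, in both genotypes, with a rise of 1.16 ± 0.27 on the log2 scale in WT (adjusted p = 0.0268, unpaired 0.714) and of 1.27 ± 0.22 in Cacnb3-/- cells (adjusted p = 0.0024, unpaired 0.241). The call in Cacnb3-/- cells was lost when trends with GC content were taken out in the paired fit, and the one in WT was kept. *Hpgds* was also called in WT 24h against ctrl in the paired fit, at 1.48 ± 0.30 (adjusted p = 0.0225, unpaired 0.779). Its level in WT 0p5h was 0.130 to 4.81 CPM and in WT 24h 0.328 to 10.7 CPM. *Fpr2*, a receptor for lipoxin A4 and formyl peptides, fell in WT 24h against ctrl by 1.17 ± 0.17 on the log2 scale in the paired fit (adjusted p = 0.00697, unpaired 0.159, called also by DESeq2 beside 0.204% of all genes), from a range of 19.4 to 27.8 CPM to one of 5.07 to 13.1 CPM. The unpaired value for *Fpr2* in Cacnb3-/- cells between the same sets was -0.06 ± 0.52 (adjusted p = 0.954), and the interaction was 1.07 ± 0.61 (adjusted p = 0.753). The median log2 fold change of the list lay between -0.15 and 0.22, and that of all genes tested between -0.01 and 0.03.

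The genes most like each member over the 30 libraries, by Pearson correlation of log2 CPM among 13755 genes, are given as a description, since the libraries share cultures and sets. For *Ptgs2* they were *Osgin2* (0.905), *Dusp1* (0.903), a phosphatase of MAP kinases, and *Areg* (0.879), the EGF receptor ligand amphiregulin. For *Ptger2* they were *Irf2bpl* (0.863), *Ctns* (0.800) and *AI467606* (0.767). For *Ptges* they were *Prag1* (0.895), *Acod1* (0.882), which makes itaconate, and *Rtn4rl2* (0.879). For *Alox15*, with few reads, they were *Ppie* (0.892), *Trnau1ap* (0.886) and *Pfdn5* (0.881).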

How the data were processed

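RNA of BMDCs was measured as counts per gene. Per the labels and the file header, the authors aligned reads with STAR 2.4 to mm10 and deposited raw counts made with featureCounts 1.5.1 on Ensembl release 79 (GRCm38), without options for strand, multiple alignments or read pairs. The study's methods name GRCm39 and stranded paired-end libraries, whereas the header lists read 1 alone. Symbols were found for 39033 of 43629 identifiers (89.5%). Counts were tested with edgeR 4.0.16 in R 4.3.3 (TMM, filterByExpr, quasi-likelihood test) on the libraries of each comparison, with p-values adjusted over all genes tested. Each SE of an edgeR log2 fold change was back-calculated, as its absolute value divided by the square root of the test's F statistic. Levels are CPM from TMM over 30 libraries, and likeness used log2 of CPM plus 0.5. Where cultures were not separate animals, p-values measure only the spread between these samples.

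Pairing was checked on 13755 genes by correlating deviations from group means. This exceeded 0.1 in 29 of 30 pairs sharing a culture number (median 0.609) and had a median of -0.187 for unlike numbers, while Cacnb3-/- p974s843 gave 0.0746 for ctrl with 24h. The numbers were therefore taken to pair the libraries, except where Cacnb3-/- 24h was compared with ctrl. That exception follows a rule that every pair of a comparison must exceed 0.1. It does not show those libraries to be unpaired, since p974s843 gave 0.317 for 0p5h with ctrl and 0.618 for 24h with 0p5h. For the comparisons taken as paired, the paired value stands beside a result where it changed the call or concerns a change under 2-fold. For Cacnb3-/- 24h against ctrl only the paired value of *Ptgs2* is given, with the alternatives.

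The 10 members, the wider list and the marker lists were chosen with earlier results of these data known. All 10 members were named, genes of the wider list where called, and library values are given for members called with or without the block or with an unadjusted p under 0.05 between genotypes. Alternatives were DESeq2 1.42.0, edgeR with DESeq2 size factors, dropping the low-count filter or the fold minimum, 1 fit of all 30 libraries, a GC correction per library, the replicate block, and leaving out 1 culture at a time. Leaving out cultures in the paired fit and the lane term were added after seeing the data. The methods were tested on simulated data. Total counts limit precision most for *Alox15*.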

Additional observations from a re-analysis of the deposited data

Results flagged for a closer look

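2 of the 60 groups of 5 libraries examined, for 10 members in 6 groups, held a library far from the others, where the gap to the nearest library was more than 0.71 of the group's range (Dixon's 95% value). Chance alone gives about 3 such groups of 60. *Alox5ap* in WT 24h stood at 191.7 CPM in culture p974s856, with the nearest library at 125 CPM. *Pla2g4a* in Cacnb3-/- 24h stood at 12.7 CPM in culture p974s851, with the nearest library at 8.11 CPM.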

How the results depend on the processing

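The direction held under every alternative for all 31 changes of a member with an unadjusted p under 0.05. Of the alternatives to the counts of called members, those that moved a count were the following. In WT 0p5h against ctrl, where 0 were called, 1 member (*Ptgs2*) was called by DESeq2, with all 30 libraries in 1 fit, with the replicate block, and with the block and the GC trend removed. For WT 24h against 0p5h, leaving out cultures gave 0 to 1, and with the block it stayed at 1. In WT 24h against ctrl leaving out cultures gave 0 to 1, the 1 being *Ptgs2* in the paired fit without p974s850. In Cacnb3-/- 0p5h against ctrl the replicate block gave 2 in place of 1, also with the GC trend removed, and leaving out cultures gave 1 to 2. In Cacnb3-/- 24h against 0p5h DESeq2 and the replicate block, with or without the GC trend, gave 2 in place of 0, and leaving out cultures 0 to 2. In Cacnb3-/- 24h against ctrl, 1 member (*Ptgs2*) was called by DESeq2, without the filter on low counts and with the replicate block, with or without the GC trend, where its paired log2 fold change was 2.5 (adjusted p = 0.00884). In the replicate block fit for Cacnb3-/- 24h against ctrl, 2 of 10 members had an adjusted p under 0.05, 1 of them under 2-fold. In Cacnb3-/- against WT, 24h, leaving out cultures gave 0 to 1. The block changed no other call of a member, and its interaction for *Ptgs2* in 24h against ctrl was 3.09 (adjusted p = 0.0927). The cause of these changes was not tested. For many of these alternatives the share of all genes called is not given, as for the replicate block in Cacnb3-/- 24h against ctrl. A moved count is therefore not a result about the members. Depth limits *Alox15* most, which the low-count filter removed in WT for 2 pairs of sets at 4 to 18 reads per library.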
